A study of Trametes versicolor with 12 samples.

Results

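Ageing of mycelium was followed in strain 1956-1252 of the white-rot fungus Trametes versicolor. The 6 libraries of this strain, of 12 in the series, were taken by their labels: 3 from cultures of 2 weeks and 3 from cultures of 4 weeks. All cultures grew on agar with 4% malt, and each library came from a culture of its own, which the submitters call a biological replicate. The strain is held in the NIBIO collection, and the labels name no mutation, treatment or sort. The other 6 libraries, from strain BRFM1218, entered the fit to share 1 estimate of the spread and are not described. RNA came from whole mycelium, so a smaller share of hyphae that express a gene and less RNA per hypha cannot be told apart.

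White-rot fungi degrade lignin with secreted oxidative enzymes. Class II haem peroxidases (lignin, manganese and versatile peroxidases) use hydrogen peroxide to make strong oxidants, laccases use copper and molecular oxygen to oxidise phenols, and dye-decolorizing and haem-thiolate peroxidases are further haem enzymes with broad substrates.

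Reads assigned to genes numbered 54717436 to 74647672 per library, of which 99.0 to 99.2% were unique, and 1123 to 1205 of 14296 gene models had no reads. The first principal component of the 6 libraries held 81.6% of the variance and separated the ages. The second held 7.69% and set 2-week replicate 3 at -18.0, against 7.93 and 10.1 for the other 2-week libraries. The median absolute log2 difference between libraries was 0.0605 to 0.121 within 2 weeks, 0.0703 to 0.0821 within 4 weeks and 0.273 to 0.301 between ages.

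Many genes changed by small amounts, and the large changes were mostly rises. Of 12648 tested models, 3176 were higher at 4 weeks and 2965 lower in edgeR's quasi-likelihood test at an adjusted p under 0.05, which is 25.1% and 23.4% of the models tested and 48.6% in all. Among these called genes, 646 rose at least 2-fold (5.11% of the models tested) and 113 fell at least 2-fold (0.893% of the models tested). A rise of 4-fold to 8-fold was seen in 115 genes and a larger one in 37, whereas 7 genes fell 4-fold to 8-fold and 0 fell further. Between 1.5-fold and 2-fold, 874 genes rose and 408 fell.

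The genes that rose at least 2-fold were of low abundance at 2 weeks. They took 1.20% ± 0.00689 (SD, n = 3 per age here and below) of all reads at 2 weeks and 3.91% ± 0.0426 at 4 weeks. Their median level per length, in RPKM (reads scaled by model length and library size) with TMM factors (trimmed mean of M values), went from 4.51 to 14.6, against 14.6 and 15.2 for all tested genes. The genes that fell at least 2-fold took 1.45% ± 0.0782 of reads at 2 weeks and 0.600% ± 0.0134 at 4 weeks. Their median level was 32.2 RPKM at 2 weeks and 12.1 at 4 weeks. Both sets were picked by their change in these same libraries. The direction of these shifts, and part of the low or high level at 2 weeks, follows from that choice. Of the genes called at least 2-fold higher, 1 had at most 3 reads in each 2-week library, TRAVEDRAFT_78655, which had 6 reads in all at 2 weeks and 31 at 4 weeks. It was at 0.150, 0.0688 and 0.220 CPM (read counts scaled by library size, with TMM factors) in the 4-week libraries and was singled out after its values were seen.

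**Figure D1:**
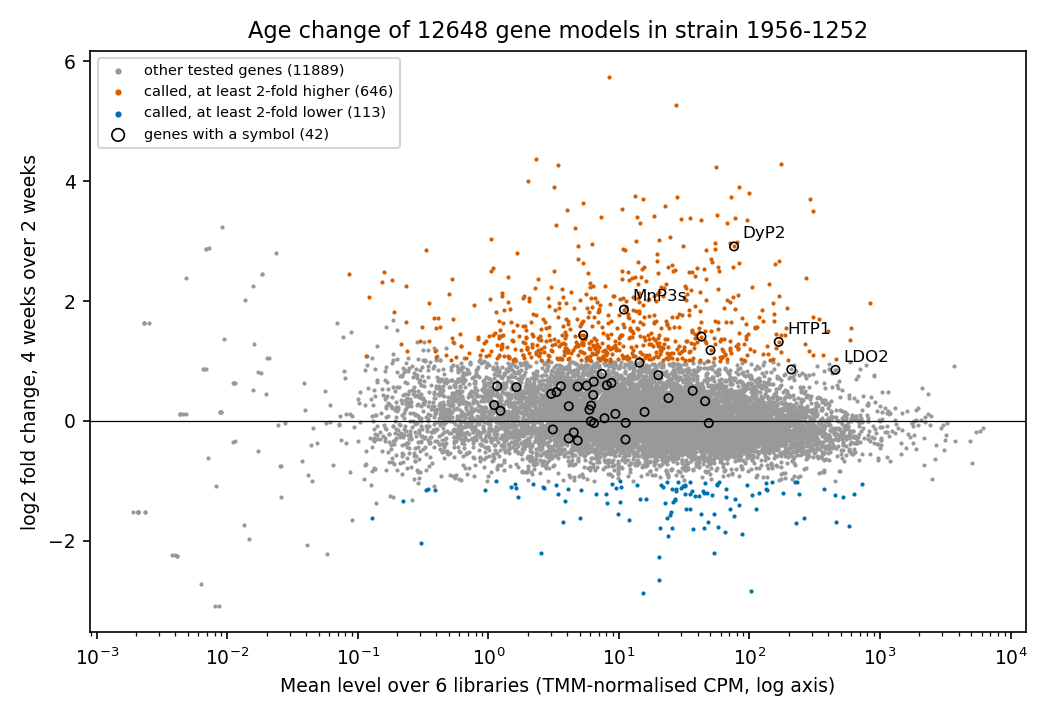
Log2 fold change of each tested gene model (vertical axis) against its mean level over the 6 libraries in TMM-normalised CPM (horizontal log axis). Orange points are the 646 genes called at least 2-fold higher, blue points the 113 called at least 2-fold lower, and open circles the 42 genes with a symbol.

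Large rises were more frequent among short and weakly expressed models. Tested models were split into 5 equal classes by length and by level. In the shortest class (150 to 708 bases), 187 of 2530 (7.39%) were called at least 2-fold higher, against 59 of 2530 (2.33%) in the longest class. By level, 155 of 2530 (6.13%) of the weakest class and 96 of 2530 (3.79%) of the strongest class were so called. The share was highest in the second weakest class, at 6.72%. The median log2 fold change ran from 0.10 in the shortest class to -0.07 in the longest, and from 0.16 in the weakest to -0.08 in the strongest. Falls of at least 2-fold showed no such order by length and lay between 0.554% and 1.54% of each class. By level, falls took 0.632% of the weakest and 0.554% of the second weakest class. In the classes above these they took 1.07%, 1.15% and 1.07%. When a trend with model length was removed from each library, the shares were 6.29% in the shortest and 3.20% in the longest class. The part of RNA integrity in this pattern was not tested.

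**Figure D2:**
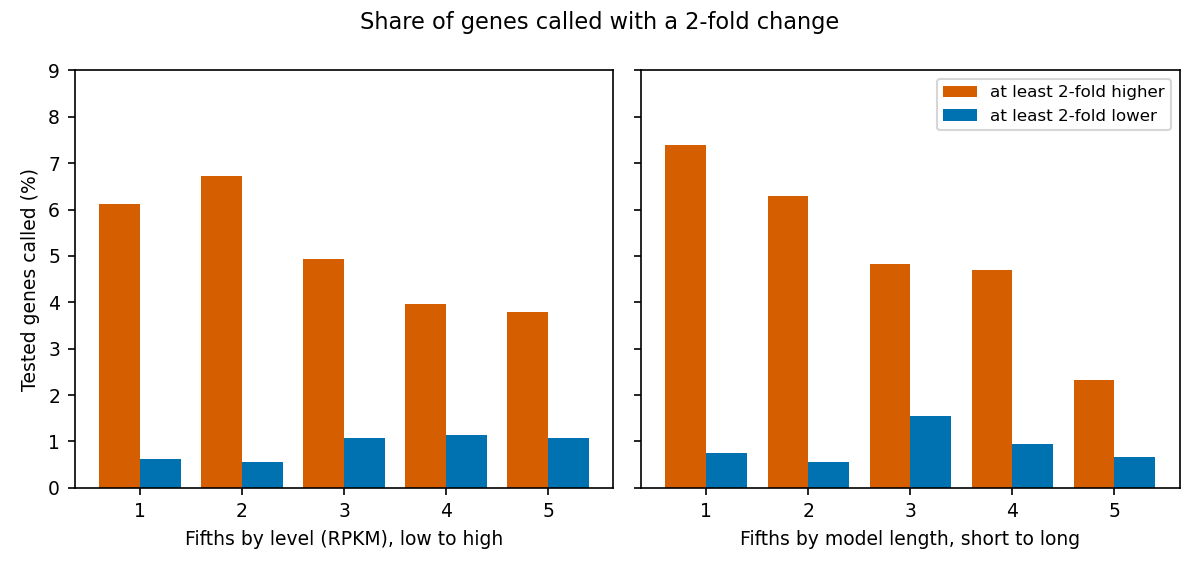
Percentage of tested genes called at least 2-fold higher (orange) or lower (blue) at 4 weeks, in 5 equal classes by mean RPKM (left, low to high) and by model length (right, short to long). The share that rose went from 7.39% in the shortest class to 2.33% in the longest.

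The 42 tested genes with a symbol are those of the families above plus TvFet3A, CCP1, LDO1 and LDO2, which are described below. Of them, 19 were higher at 4 weeks, 0 lower and 23 not called, where 25.1% of all tested genes were higher and 23.4% lower. At an unadjusted p under 0.05 the counts were 21 and 0, where 3524 and 3308 of all 12648 tested genes passed. DESeq2 gave 19 and 0, where it called 3123 higher and 3265 lower of 12402 genes. When the fit was limited to the 6 libraries of the strain, 26 passed as higher and 2 as lower, where that fit called 31.4% of all its tested genes higher and 30.6% lower. Of these 42 genes, 27 had every 4-week library above every 2-week library and 2 had every one below, where 34.4% and 31.1% of all tested genes did. Their median log2 fold change was 0.47, against 0.01 for all tested genes. The plot of log2 fold changes by family shows that the rises lay in some families and were weak or missing in others.

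**Figure D3:**
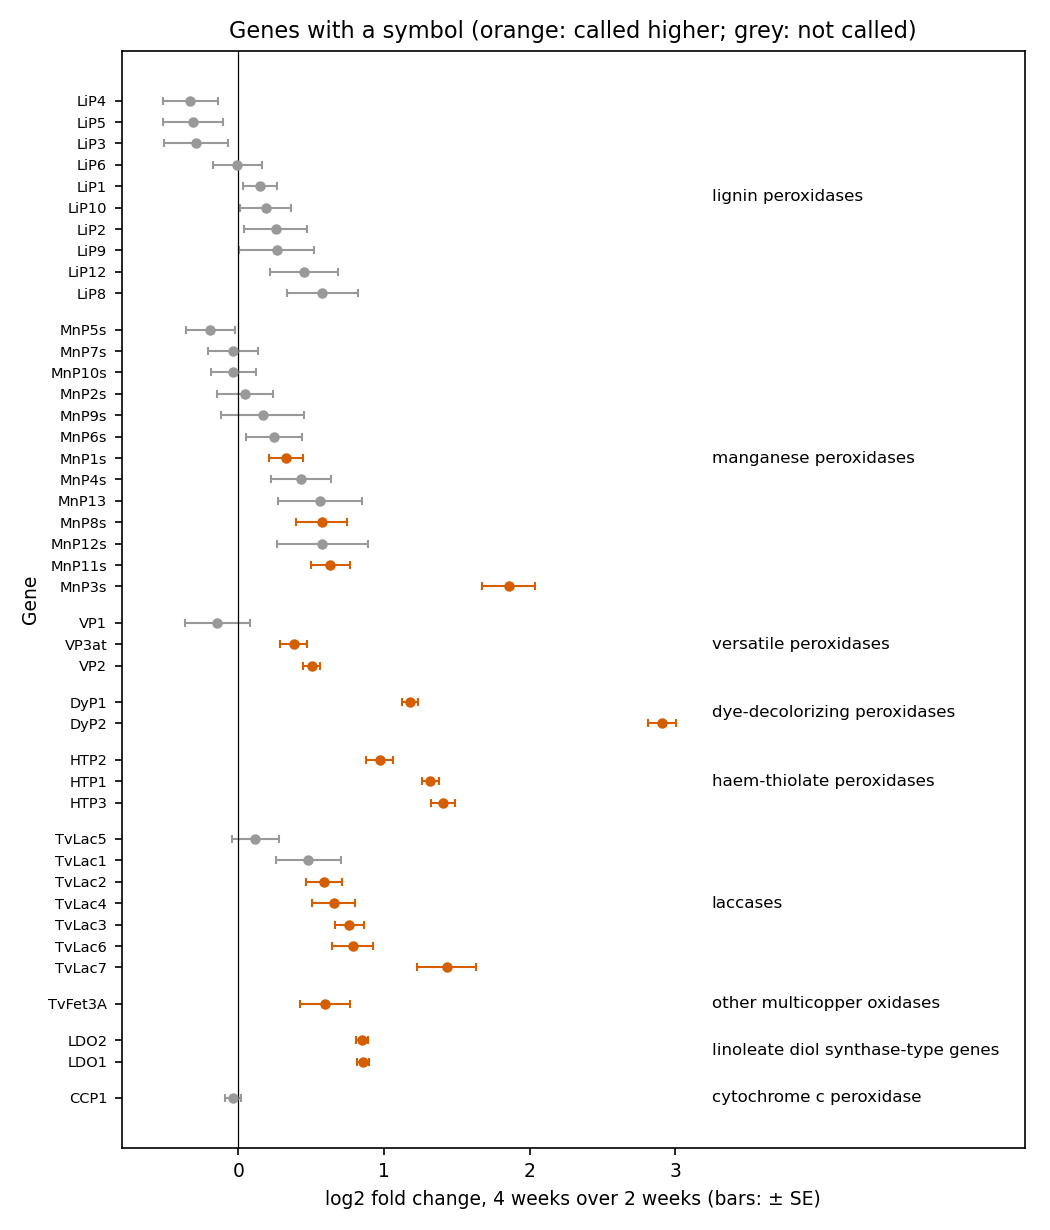
Log2 fold change of the 42 genes with a symbol, grouped by family, with bars of ± SE from the fit. Orange genes were called higher at 4 weeks and grey genes were not called. Dye-decolorizing and haem-thiolate peroxidases all lie to the right, from 0.97 to 2.91, and lignin peroxidases lie on both sides of 0.

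Dye-decolorizing peroxidases, haem enzymes unrelated in fold to the class II family, had the largest rise of the named families. DyP2 was at 16.9, 18.0 and 18.8 CPM in the 2-week libraries and at 138, 133 and 131 CPM in the 4-week libraries. The ages were far apart and the libraries within an age close, with a log2 fold change of 2.91 (SE 0.10, adjusted p = 2.57e-13 in edgeR). DyP1 was at 29.6, 31.6 and 31.3 CPM at 2 weeks and at 69.9, 68.4 and 71.1 CPM at 4 weeks (log2 fold change 1.18, SE 0.05, adjusted p = 1.69e-11 in edgeR). DyP1 had the higher level per length at 2 weeks, 21.2 ± 0.737 against 12.2 ± 0.647 RPKM, and DyP2 at 4 weeks, 91.5 ± 2.45 against 47.9 ± 0.947 RPKM, so the order of the pair turned with age beyond the spread between libraries. Their summed level rose from 33.3 ± 1.33 to 139 ± 2.46 RPKM.

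Haem-thiolate peroxidases, in which a cysteine binds the haem and which insert oxygen into organic substrates, were all 3 higher. HTP1 was at 95.4, 95.1 and 97.3 CPM at 2 weeks and at 240.0, 239 and 238 CPM at 4 weeks, a rise of 2.49-fold (adjusted p = 9.07e-12 in edgeR). HTP3 was at 23.1, 24.7 and 22.7 CPM, then at 59.7, 64.5 and 62.7 CPM (2.65-fold, adjusted p = 4.09e-10 in edgeR). HTP2 was at 9.64, 10.6 and 8.89 CPM, then at 18.5, 18.8 and 19.8 CPM (1.96-fold, adjusted p = 1.77e-07 in edgeR). No library of one age came near those of the other. At 4 weeks HTP1 had the highest level per length of all 42 genes with a symbol, 236 ± 0.761 RPKM. At 2 weeks it stood beside LDO2, at 94.8 ± 1.16 against 96.1 ± 1.83 RPKM, a gap within the spread between libraries.

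The genes LDO1 and LDO2 are named for linoleate diol synthase-type enzymes, which oxygenate linoleic acid and whose relatives in Aspergillus nidulans make signals that act on sporulation. LDO2 was at 318, 328 and 329 CPM at 2 weeks and at 602, 575 and 582 CPM at 4 weeks. LDO1 was at 149, 148 and 149 CPM at 2 weeks and at 277, 263 and 269 CPM at 4 weeks. Both rose by nearly the same factor, 1.80-fold for LDO2 and 1.81-fold for LDO1 (adjusted p = 2.51e-11 and 5.58e-11 in edgeR). Per length, LDO2 stood above LDO1 at both ages, with 173 ± 4.19 and 76.7 ± 1.92 RPKM at 4 weeks.

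**Figure D4:**
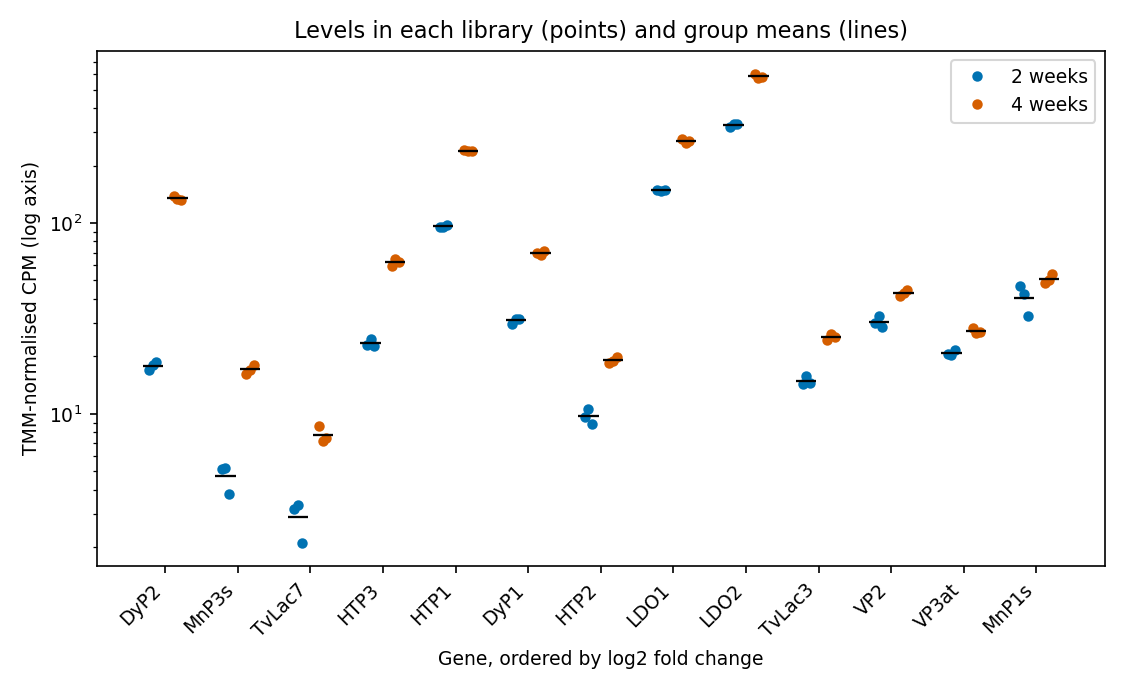
TMM-normalised CPM (log axis) of the 13 called genes with a symbol that had a mean of at least 10 CPM or changed at least 2-fold, with 1 point per library and a line at the mean of 3, in blue for 2 weeks and orange for 4 weeks. In DyP2 the 2-week points lie at 16.9 to 18.8 and the 4-week points at 131 to 138, whereas in MnP1s the ages nearly meet.

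Of 7 laccases, 5 were higher and 0 lower, where 25.1% of all tested genes were higher. TvLac7 was at 3.18, 3.33 and 2.12 CPM at 2 weeks and at 8.59, 7.24 and 7.5 CPM at 4 weeks, the one laccase past 2-fold (2.70-fold, SE 0.20 on the log2 scale, adjusted p = 1.81e-05 in edgeR). TvLac3, the laccase with the most reads, was at 14.4, 15.7 and 14.4 CPM and then at 24.4, 26.1 and 25.2 CPM (log2 fold change 0.76, SE 0.10, adjusted p = 8.55e-06 in edgeR). TvLac6, TvLac4 and TvLac2 rose by 0.78, 0.65 and 0.59 on the log2 scale. All 7 had every 4-week library above every 2-week library, TvLac1 (log2 fold change 0.48, adjusted p = 0.0852 in edgeR) and TvLac5 (0.12, adjusted p = 0.582 in edgeR) included. Of all tested genes, 34.4% did. TvLac1 passed when only the strain's own libraries were fitted (0.47, adjusted p = 0.00292 in edgeR). The summed level of the laccases went from 27.7 ± 1.14 to 44.0 ± 1.29 RPKM.

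TvFet3A, named for a ferroxidase-type multicopper oxidase of the kind that serves iron uptake in Saccharomyces cerevisiae, was at 6.02, 6.07 and 7.25 CPM at 2 weeks and at 10.2, 9.61 and 9.34 CPM at 4 weeks (0.60, SE 0.17, adjusted p = 0.00932 in edgeR). Of its reads 87.4% were unique, the lowest share among genes with a symbol, and with unique reads the change was 0.53. The call ended without 2-week replicate 1 (adjusted p = 0.0518 in edgeR) and without 2-week replicate 2 (adjusted p = 0.0501).

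Of 13 manganese peroxidases, which oxidise manganese(II) to a diffusible oxidant, 4 were higher, 0 were lower and 9 did not pass, a share of rises near the 25.1% of all tested genes. MnP3s stood out from the rest at 5.15, 5.22 and 3.8 CPM at 2 weeks and 16.3, 17 and 18.1 CPM at 4 weeks (log2 fold change 1.86, SE 0.18, adjusted p = 2.6e-07 in edgeR). Of its reads 94.6% were unique, and with unique reads the change was 1.89. MnP11s and MnP8s rose by 0.63 and 0.57 on the log2 scale, from 6.87 ± 1.05 and 3.89 ± 0.120 CPM. MnP1s, the manganese peroxidase with the highest level per length, was at 46.9, 42.3 and 32.4 CPM and then at 48.5, 50.1 and 54.2 CPM. Its ages nearly met, and the call (0.33, SE 0.12, adjusted p = 0.0264 in edgeR) ended without 2-week replicate 3 (0.19, adjusted p = 0.139), 2-week replicate 2 (adjusted p = 0.0547), 4-week replicate 2 (adjusted p = 0.0544) or 4-week replicate 3 (adjusted p = 0.104). The other 9 members lay between -0.19 and 0.58, none called. Of them, MnP4s, MnP12s and MnP13 passed when only the strain's own libraries were fitted, for a count of 7 of 13. That fit called more genes in all, with 31.4% of its tested genes higher.

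Versatile peroxidases combine the manganese and the aromatic substrate sites of the other class II enzymes. VP2 rose from 30.0, 32.7 and 28.4 CPM to 41.4, 43.2 and 44.6 CPM (log2 fold change 0.50, SE 0.06, adjusted p = 1.71e-06 in edgeR). VP3at rose from 20.5, 20.5 and 21.5 CPM to 28.0, 26.6 and 26.7 CPM (0.38, SE 0.09, adjusted p = 0.00215 in edgeR). VP1 was at 2.89 to 3.58 CPM at 2 weeks and at 2.78 to 3.09 CPM at 4 weeks, with overlap.

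Lignin peroxidases, which oxidise non-phenolic aromatic units, gave no call in either direction among 10 members. At an unadjusted p under 0.05, 1 was higher and 0 lower, where 3524 and 3308 of all 12648 tested genes were. DESeq2 called 0 of the 10, against 3123 higher and 3265 lower of 12402 genes. Their log2 fold changes ran from -0.33 for LiP4 to 0.58 for LiP8, with a median of 0.17. LiP8 was at 3.22, 3.06 and 2.36 CPM at 2 weeks and at 4.44, 4.22 and 4.25 CPM at 4 weeks. LiP4 was at 5.39, 5.99 and 4.75 CPM and then at 4.09, 4.43 and 4.33 CPM, and LiP5 at 11.7 to 13.5 and then 9.37 to 10.5 CPM. In these 3 genes, and in LiP12 and LiP2, the ages did not overlap. Of the 10 members, 3 thus lay wholly higher and 2 wholly lower, where 34.4% and 31.1% of all tested genes did. When only the strain's own libraries were fitted, LiP8, LiP12 and LiP2 passed as higher (log2 fold changes 0.57, 0.44 and 0.25) and LiP4 and LiP5 as lower (-0.34 and -0.32). That fit called 31.4% of all its tested genes higher and 30.6% lower, so these counts among 10 members were not above those shares. The summed level of the family was 55.1 ± 5.39 RPKM at 2 weeks and 56.7 ± 3.24 RPKM at 4 weeks, within the spread.

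CCP1, named for cytochrome c peroxidase, a mitochondrial enzyme that removes hydrogen peroxide, was at 50.5, 51.4 and 46.2 CPM at 2 weeks and at 47.6, 48.7 and 48.3 CPM at 4 weeks. The libraries overlapped and the log2 fold change was -0.04 (SE 0.05, adjusted p = 0.600 in edgeR).

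Several of these genes lie close together, by their order in the RefSeq table of the Trametes versicolor reference assembly, which comes from another isolate. That table names no scaffold, so scaffold ends were inferred from the order of start positions (171 segments), and the order of genes in strain 1956-1252 was not tested. HTP2 and HTP3 are adjacent and both rose. DyP1 and DyP2 are separated by 3 models that did not move as a block. TRAVEDRAFT_72801 fell from 123 ± 2.57 to 95.6 ± 2.93 CPM (log2 fold change -0.37), TRAVEDRAFT_72802 rose from 69.8 ± 0.714 to 135 ± 2.13 CPM (0.96) and TRAVEDRAFT_150496 rose from 283 ± 9.48 to 320 ± 7.70 CPM (0.17). TvLac6 and TvLac7 flank TRAVEDRAFT_167576, which was at 119 ± 9.48 and 138 ± 7.14 CPM (0.21, adjusted p = 0.0332 in edgeR, lost in 7 of 17 alternatives with adjusted p up to 0.166). TvLac4 and TvLac5 are adjacent and had log2 fold changes of 0.65 and 0.12.

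In the stretch from MnP7s to MnP9s, which holds 5 manganese peroxidases in 7 models, MnP8s alone was called higher, while 2 models between them fell. TRAVEDRAFT_131096 went from 1732 ± 72 to 1177 ± 6.29 CPM (-0.56, SE 0.04) and TRAVEDRAFT_23041 from 7.56 ± 0.205 to 4.92 ± 0.180 CPM (-0.62, SE 0.15). In the stretch from LiP3 to LiP6, TRAVEDRAFT_23626 fell from 260.2 ± 18.4 to 167 ± 6.51 CPM (-0.64, SE 0.05), TRAVEDRAFT_74601 rose from 16 ± 0.652 to 20.9 ± 1.02 CPM (0.39, SE 0.10), and the 4 lignin peroxidases there were not called. MnP3s has a neighbour that rose with it, TRAVEDRAFT_130508, from 1.84 ± 0.122 to 6.0 ± 0.255 CPM (1.70, SE 0.23).

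Across all tested models, genes that rose at least 2-fold often lay beside another such gene. Of 638 with a tested neighbour, 188 (29.5%, exact 95% interval 26.0 to 33.2) had at least 1 adjacent model that also rose at least 2-fold, against 968 of 11808 (8.2%) of the other tested models. Of 112 genes that fell at least 2-fold, 17 (15.2%, exact 95% interval 9.10 to 23.2) had a neighbour that did so, against 194 of 12334 (1.57%) of the others. None of the 109 adjacent risen pairs or 10 adjacent fallen pairs overlapped in the annotation. Adjacent genes are not independent, and these intervals cover counting error only.

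The longest run of risen neighbours held 6 models, and 7 further runs held 4. Some members of the runs of 4 were near the 2-fold limit. With 1 library left out, the log2 fold changes of TRAVEDRAFT_39656, TRAVEDRAFT_53241 and TRAVEDRAFT_53244 went down to 0.979, 0.983 and 0.943. The runs that held them were thus not whole in every such fit. In the run of 6, TRAVEDRAFT_156723 was at 5.49, 5.56 and 4.74 CPM at 2 weeks and at 40.9, 44.4 and 47.6 CPM at 4 weeks (log2 fold change 3.07, SE 0.08). TRAVEDRAFT_75468 was at 21.2, 22.7 and 21.2 CPM and then at 127, 128 and 132 CPM (2.57, SE 0.06). TRAVEDRAFT_136448, TRAVEDRAFT_75471, TRAVEDRAFT_175736 and TRAVEDRAFT_156714 rose by 2.65, 2.54, 1.94 and 1.24 on the log2 scale. In every one of the 6 the ages stood clear of each other, as they did in all 646 genes called at least 2-fold higher. Of their reads 99.0% or more were unique.

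A run of 4 held TRAVEDRAFT_130527, TRAVEDRAFT_51352, TRAVEDRAFT_51353 and TRAVEDRAFT_51354, with log2 fold changes of 3.90, 3.53, 3.30 and 1.5. Another held TRAVEDRAFT_43329, TRAVEDRAFT_69182, TRAVEDRAFT_43330 and TRAVEDRAFT_113388, at 2.97, 2.87, 2.19 and 1.13. A further run of 4 held TRAVEDRAFT_160067, which rose from 143 ± 2.61 to 476 ± 10.1 CPM, and TRAVEDRAFT_42584, which rose from 62.0 ± 4.28 to 242 ± 1.92 CPM. The one run of 4 fallen models held TRAVEDRAFT_157138, TRAVEDRAFT_54353, TRAVEDRAFT_67650 and TRAVEDRAFT_75644, of which TRAVEDRAFT_54353 was at 917, 904 and 849 CPM at 2 weeks and at 381, 377 and 391 CPM at 4 weeks (-1.22, SE 0.05). The others fell by 1.57, 1.15 and 1.14 on the log2 scale, in that order. These runs were picked out after their values were seen.

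**Figure D5:**
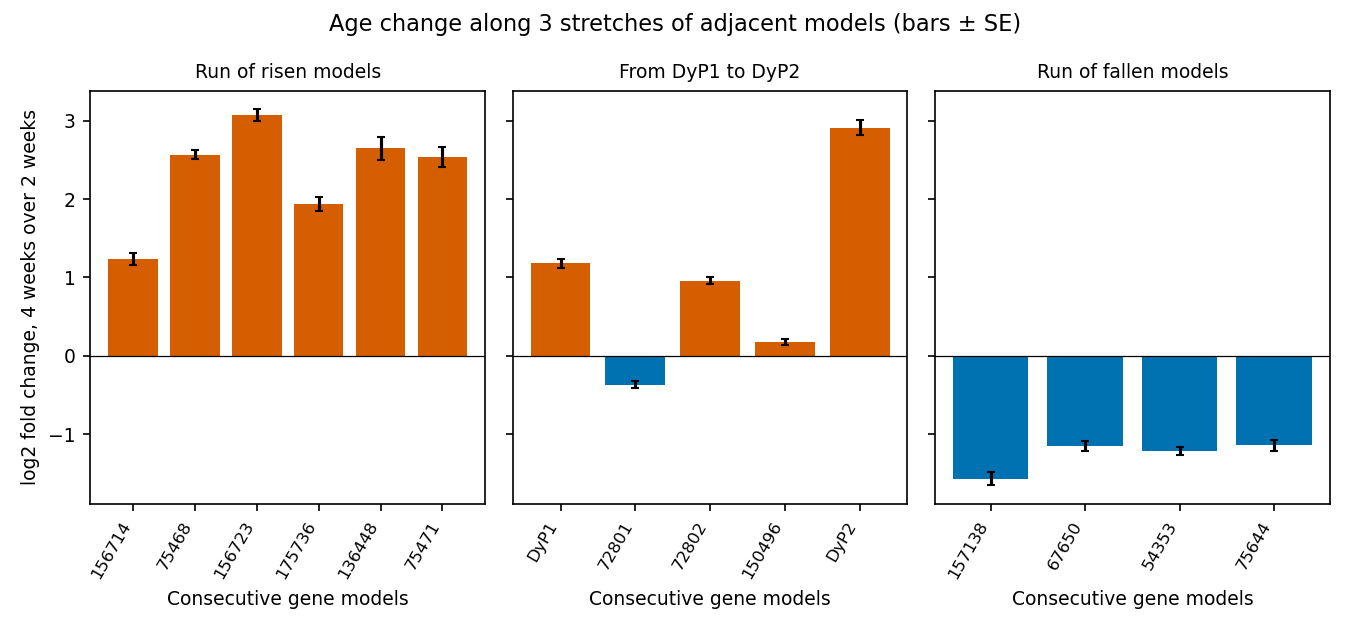
Log2 fold change (bars, ± SE) of consecutive gene models in the run of 6 risen models (left), from DyP1 to DyP2 (centre) and in the run of 4 fallen models (right), with the number of the locus tag under each bar. All bars are positive on the left, from 1.24 to 3.07, and the centre holds rises and 1 fall.

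The largest rises among genes with a mean of at least 10 CPM were in 8 models without a symbol or description in the sources used here, so that no role can be given. TRAVEDRAFT_137860 was at 1.65, 1.26 and 1.248 CPM at 2 weeks and at 58.7, 48.1 and 53.1 CPM at 4 weeks (log2 fold change 5.26, SE 0.15, adjusted p = 7.14e-13 in edgeR). TRAVEDRAFT_39657 was at 16.1, 15.9 and 18.8 CPM and then at 346, 323 and 326 CPM (4.29, SE 0.13). TRAVEDRAFT_35587 was at 5.95, 5.43 and 5.30 CPM and then at 103, 104 and 107 CPM (4.23, SE 0.09). In each, all 4-week libraries lay more than an order of magnitude above all 2-week libraries.

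The neighbour of TRAVEDRAFT_35587, TRAVEDRAFT_116408, rose beside it from 3.20 ± 0.113 to 34.2 ± 1.60 CPM (3.42, SE 0.14), and TRAVEDRAFT_39657 lay in another of the runs of 4. TRAVEDRAFT_130527, TRAVEDRAFT_49769, TRAVEDRAFT_34056, TRAVEDRAFT_58662 and TRAVEDRAFT_44779 rose by 3.90, 3.81, 3.76, 3.74 and 3.73 on the log2 scale. Of these, TRAVEDRAFT_49769 reached 186 ± 2.27 CPM and its adjacent models were not called. TRAVEDRAFT_130527 reached 155 ± 2.68 CPM inside its run.

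The largest falls were smaller. TRAVEDRAFT_45814 was at 30.0, 31.1 and 20.3 CPM at 2 weeks and at 2.97, 4.31 and 3.81 CPM at 4 weeks (log2 fold change -2.87, SE 0.25, adjusted p = 4.63e-08 in edgeR). TRAVEDRAFT_153507 was at 192, 183 and 167 CPM and then at 25.4, 24.6 and 26.1 CPM (-2.83, SE 0.06). Its neighbour TRAVEDRAFT_31004 moved the other way, from 28.5 ± 2.52 to 112 ± 1.247 CPM (1.98, SE 0.06).

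TRAVEDRAFT_74496 was at 35.6, 35.3 and 34.6 CPM and then at 5.17, 5.24 and 6.29 CPM (-2.66, SE 0.12). Its neighbour TRAVEDRAFT_173629 fell with it, from 69.0 ± 9.84 to 20.0 ± 1.57 CPM (-1.78, SE 0.11). TRAVEDRAFT_47943, TRAVEDRAFT_55030, TRAVEDRAFT_72851, TRAVEDRAFT_110304 and TRAVEDRAFT_72567 fell by 2.26, 2.21, 1.92, 1.89 and 1.85 on the log2 scale. In 7 of these 8 falls the lowest of the 2-week libraries was replicate 3, the one that stood apart on the second component. Without that library all 8 were still called lower. In all 8 the ages did not meet, but this was a condition for naming them.

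Among the 4 rises and 4 falls of at least 1.5-fold with the most reads, 1 passed 2-fold. TRAVEDRAFT_144610 rose from 352, 350.1 and 319 CPM to 1300.3, 1335 and 1376 CPM (log2 fold change 1.97, SE 0.05, adjusted p = 3.4e-15 in edgeR). TRAVEDRAFT_163607 rose from 2573, 2739 and 2334 CPM to 4539, 4974 and 4892 CPM (0.91, SE 0.05). TRAVEDRAFT_176288 and TRAVEDRAFT_31191 rose by 0.77 and 0.74 on the log2 scale.

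The most abundant of these falls, TRAVEDRAFT_161318, went from 6580.4, 6340 and 5990 CPM to 3752, 3867 and 4049 CPM (-0.70, SE 0.04). TRAVEDRAFT_30445 fell from 3470, 3549 and 2918 CPM to 1568, 1781 and 1718 CPM (-0.97, SE 0.06), and its neighbour TRAVEDRAFT_50182 from 279 ± 42.8 to 142 ± 12.8 CPM (-0.97, SE 0.10). TRAVEDRAFT_159607 and TRAVEDRAFT_161863 fell by 0.74 and 0.64 on the log2 scale. The 10 models with most reads took 5.73% ± 0.0360 of each library at 2 weeks and 5.15% ± 0.0931 at 4 weeks.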

How the data were processed

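Per the labels' protocols, total RNA came from triplicate cultures and libraries followed a standard Illumina protocol. Per the file headers, the authors deposited for each of 14296 gene models a count of uniquely aligned reads, a count of all reads and an RPKM value. Nothing on the aligner, counting tool, strand or build was given in the sources used here. RPKM served to recover the model length. Protein numbers were matched to locus tags in RefSeq's gene table (assembly Trametes versicolor v1.0) (14250 matched, 42 with a symbol), which was used for names and neighbours.

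The test was edgeR's (version 4.0.16, R 4.3.3) on the deposited count of all reads (filterByExpr, leaving 12648 models and removing 1648, TMM, 1 mean per group over all 12 libraries, 8 residual degrees of freedom, quasi-likelihood F test, Benjamini-Hochberg adjustment over all tested models). A gene is called at an adjusted p under 0.05. Its SE is the absolute log2 fold change over the square root of F. The fitted common coefficient of biological variation was 8.27%. The level of 3 reads was 0.0341 to 0.0450 CPM. In simulated counts for this comparison on 12564 genes, 98% of 2-fold, 70% of 1.5-fold and 42% of 1.25-fold changes were called. Changes were placed in 50 genes per fold, none of them weakly expressed, and all other genes were left unchanged. Far more genes changed in the data, so these rates are not those of all tested genes.

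Genes were named by a rule: called genes with a symbol and a mean of at least 10 CPM or a 2-fold change, the 8 largest rises and falls at a mean of at least 10 CPM without overlap, and the 4 most abundant rises and falls of at least 1.5-fold. Closest paralogs and promoter and protein features were planned and not analysed here. Other genes were chosen after their values were seen, and the families and lists were chosen with earlier results of these data known. Alternatives used DESeq2 1.42.0, limma-voom (limma 3.58.1), other scalings, filters, unique reads, only the 6 libraries of the strain, a replicate block and each library left out.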

Additional observations from a re-analysis of the deposited data

How the results depend on the processing

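Under the alternatives, genes higher at 4 weeks numbered 2569 to 3923 and genes lower 2459 to 3831, with 2569 to 2888 and 2637 to 2859 when 1 library was left out. A test of whether the change exceeded 1.5-fold (glmTreat), in place of a call with an estimate of at least 2-fold, gave 792 genes higher and 180 lower, against 646 and 113. Lignin peroxidases higher numbered 1 with library size only, 3 with only the 6 libraries of the strain, 3 with the replicate block and 1 with limma-voom, and 2 were lower under each of the last 3 settings, as were 2 of all genes with a symbol. Manganese peroxidases higher numbered 7 with only the 6 libraries and 7 with the replicate block. Of all tested genes, the fit of only the 6 libraries called 31.4% higher and 30.6% lower. The replicate block called 3695 higher and 3570 lower of 12505. Limma-voom called 3592 higher and 3377 lower of 12648, and library size only 3632 and 2459. The ferroxidase-type count was 0 to 1 when 1 library was left out. Removing the length trend gave 6.29% in the shortest and 3.20% in the longest class of models, and the weakest class by level held 7.35% with library size only and 7.25% with only the 6 libraries. The cause was not tested. Calls of named genes were lost in MnP1s (4 alternatives), TvFet3A (2) and TRAVEDRAFT_167576 (7) and in no other gene named in the text; TRAVEDRAFT_78655 was tested in 14 of 17 alternatives. Of genes not called, CCP1 (0.0157), LiP6 (0.0454), MnP10s (0.0198) and MnP7s (0.0175) changed sign with library size only, and LiP6 (0.00395) with unique reads. With 1 library left out, LiP6 ran from -0.150 to 0.0852, MnP10s from -0.219 to 0.0521, MnP2s from -0.0393 to 0.0962 and MnP7s from -0.157 to 0.0595.

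Same-numbered libraries of the 2 ages showed no shared deviation (correlations of -0.136, 0.0241 and -0.206). Differently numbered libraries ran from -0.143 to 0.208. With 3 libraries per age this cannot tell whether same-numbered cultures had a common origin. The replicate block gave 3695 genes higher and 3570 lower.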
